A study of Mus musculus with 9 samples.

Results

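The genes described are the cytosolic ribosomal protein genes, the protein parts of the ribosome that translates nuclear-encoded mRNA. Membership was set by symbol, but the choice was made with earlier results of these data known. The set takes every gene whose platform symbol names a large subunit (Rpl), small subunit (Rps) or P stalk (Rplp) protein or Rpsa. Each is measured by a probe set annotated to that gene only. This gave 61 genes with 217 probe sets, out of 19938 genes with 21789 single-gene probe sets. The set holds 33 large subunit genes (P stalk included), 21 small subunit genes and 7 paralogs or -like genes. RefSeq lists 1 member, Rps4l, as a transcribed pseudogene and not as a protein-coding gene. RefSeq lists 84 protein-coding symbols of this form. Of these, 24 had no single-gene probe set under that symbol and are not among the members, so the set is not complete. Where a gene had several probe sets, the one with the highest mean over the 9 arrays represents it. All values are log2 expression, differences are on that scale, and a difference of 1 is a 2-fold change.

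The series profiled nasal mucosa RNA from BALB/c mice, labelled as male and 6-8 weeks old, on Affymetrix Mouse Gene 1.0 ST arrays, with 3 arrays in each of 3 groups. The 4-week group was sensitised to and challenged with ovalbumin (OVA), a hen egg protein used as an allergen, and taken 4 weeks after the last challenge. The OVA group had the same treatment and was taken 2 hours after the last challenge. The arrays labelled control come from mice given saline for sensitisation and challenge, and the title's theme of allergen avoidance makes 4-week against OVA the main comparison here. Nothing in the labels ties an array to a mouse of its own, so the p-values rest on sample-to-sample spread that could be technical only, and 3 arrays per group limit the precision.

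Array medians lay between 6.38 and 6.45, and arrays correlated across probe sets at 0.986 to 0.992 within groups and 0.973 to 0.988 between groups. The arrays labelled control did not match the male label: Xist, transcribed from the inactive X chromosome of females, read 4.27, 4.31 and 4.42 in the 4-week group and 4.36, 4.29 and 4.22 in the OVA group, against 10.62, 10.70 and 11.11 on the arrays labelled control. The Y-linked Eif2s3y was low on the same 3 arrays. Every difference from these arrays therefore cannot be told apart from this mismatch, and only 4-week minus OVA has the same pattern on both sides. Markers of mature olfactory neurons, which line part of the nasal cavity, averaged 10.15 to 10.61 in the 4-week group, 10.29 to 10.49 in the OVA group and 10.42 to 10.79 on the arrays labelled control.

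A ribosome has a small (40S) subunit that decodes mRNA and a large (60S) subunit that joins amino acids, each built from ribosomal RNA and one copy of most ribosomal proteins. The genes are transcribed at high rates in nearly every cell, and the proteins are needed in equal amounts. In mammals their mRNAs begin with a C followed by a run of pyrimidines, the 5′ terminal oligopyrimidine (TOP) tract, through which the kinase mTOR and the RNA-binding protein LARP1 control translation and mRNA stability.

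The 5′ ends of 6 members are shown because they show where pyrimidine runs lie near the annotated start and belong to genes with different results in the comparisons that follow. Each is 30 bases of RefSeq sequence (GRCm38.p6), running from 10 bases before to 20 bases after the annotated start, 5′ to 3′ on the gene's strand, with the longest match to a C followed by at least 4 pyrimidines in capitals.
Rpl27a: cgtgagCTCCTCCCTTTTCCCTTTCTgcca
Rpl38: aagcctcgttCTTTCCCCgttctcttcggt
Rplp0: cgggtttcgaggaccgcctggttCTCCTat
Rps15a: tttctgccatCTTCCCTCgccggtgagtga
Rps6: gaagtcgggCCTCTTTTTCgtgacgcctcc
Rps19: agcggggtgtggagggCTCTCCCacgcggt
These lie at chr7:109519185-109519214 (plus strand) for Rpl27a, chr11:114668570-114668599 (plus) for Rpl38, chr5:115559457-115559486 (plus) for Rplp0, chr7:118116128-118116157 (minus) for Rps15a, chr4:86857348-86857377 (minus) for Rps6 and chr7:24884903-24884932 (plus) for Rps19. The tract starts at the first annotated base (position 1) in Rpl38 and Rps15a, before it in Rpl27a and Rps6, and well inside the transcript in Rps19 (position 7) and Rplp0 (position 14, with 5 bases). The last 2 are matches within the window and not a tract at the annotated start.

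A share of the cytosolic ribosomal protein genes was higher 4 weeks after the last challenge than 2 hours after it. In 4-week minus OVA, 17 of the 61 genes rose and 0 fell at an adjusted p under 0.05 (limma's moderated test, Benjamini-Hochberg over 23410 named probe sets), that is 27.9% higher against 3.81% of all named probe sets. Among all named probe sets 2.51% fell. Counted with 1 probe set per gene, as for the 61 genes, 2.62% of all 19938 genes rose. With no adjustment, 37 of the 61 (60.7%) had a p under 0.05 in either direction, against 22.5% of all 19938 genes. With the arrays labelled control left out of the fit, 16 rose and 0 fell. The median change was 0.23, against −0.03 over all 19938 genes. The 17 genes rose by 0.37 to 0.73, which is 1.29-fold to 1.66-fold. In whole tissue, a change in the number of cells of a type and a change in RNA per cell cannot be told apart.

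The shift was spread over the set and small per gene. Of the 61 genes, 54 had a change above 0, against 44.6% of all named probe sets. All 3 of the 4-week arrays lay above all 3 of the OVA arrays in 41 genes, against 14.5% of all named probe sets, and the reverse held in 3 genes, against 13.7%. Counted with 1 probe set per gene, these orders held in 2488 and 2862 of all 19938 genes, and 8505 had a change above 0. The median over the 61 genes was 9.55, 9.58 and 9.63 on the 4-week arrays, 9.27, 9.21 and 9.13 on the OVA arrays, and 9.31, 9.31 and 9.18 on the arrays labelled control. The 4-week arrays were thus the highest in this median and did not overlap with either other group. The SD between arrays of a group had a median over the genes of 0.059 in the 4-week group, 0.085 in the OVA group and 0.089 on the arrays labelled control.

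**Figure D1:**
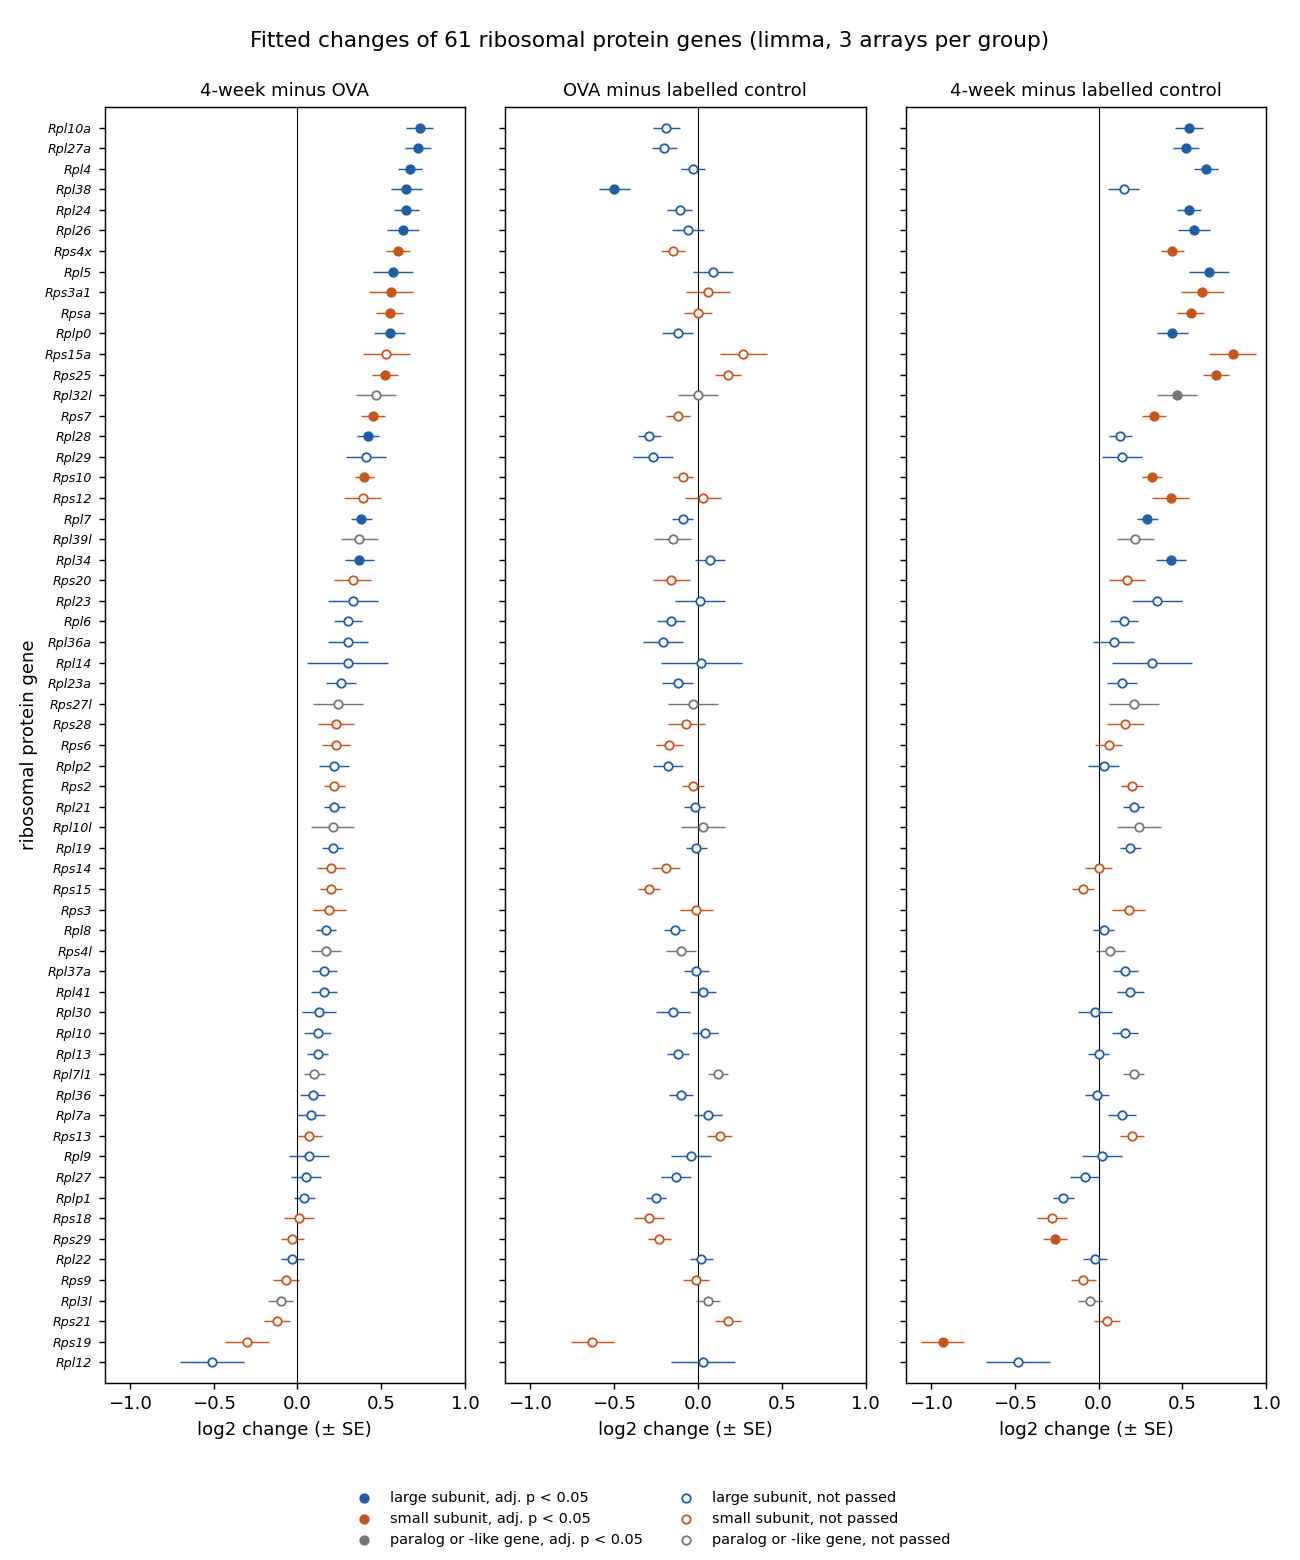
Fitted log2 change (points) with its SE (bars) of the 61 ribosomal protein genes, 1 row per gene ordered by 4-week minus OVA, in the 3 comparisons; filled points had an adjusted p under 0.05 (limma, 3 arrays per group). In the left panel 54 of 61 points lie above 0 and 17 are filled, and in the middle panel 1 point, Rpl38, is filled.

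Among the large subunit genes, 11 of 33 rose in 4-week minus OVA, with a median of 0.26. Rpl10a, a protein of the L1 stalk beside the exit site for tRNA, had 11.21, 11.17 and 11.14 on the 4-week arrays, 10.60, 10.40 and 10.34 on the OVA arrays, and 10.69, 10.66 and 10.55 on the arrays labelled control. The 4-week values lay above those of both other groups, which overlapped each other, and the rise over OVA was 0.73 (SE 0.081, adjusted p = 0.00362, n = 3 each). Rpl27a, whose long tract is printed above, had 9.71, 9.69 and 9.66 on the 4-week arrays, 9.06, 9.03 and 8.81 on the OVA arrays, and 9.12, 9.19 and 9.18 on the arrays labelled control. It rose by 0.72 over OVA (SE 0.077, adjusted p = 0.00353). The OVA values all lay below the labelled control values, though that difference did not pass.

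Rpl4, a protein that reaches into the exit tunnel for the new peptide, had 9.86, 9.84 and 9.86 on the 4-week arrays, 9.22, 9.21 and 9.13 on the OVA arrays, and 9.24, 9.31 and 9.09 on the arrays labelled control. Its rise over OVA was 0.67 (SE 0.072, adjusted p = 0.00353), with the OVA and labelled control values overlapping each other. Rpl24, at the face where the subunits meet, had 9.48, 9.44 and 9.52 on the 4-week arrays, 8.82, 8.92 and 8.74 on the OVA arrays, and 8.91, 9.04 and 8.87 on the arrays labelled control. The change from OVA was 0.65 (SE 0.074, adjusted p = 0.0039), and the 4-week values again lay above both other groups. Rpl26, which in human cells also binds p53 mRNA, had 7.33, 7.59 and 7.49 on the 4-week arrays, 6.96, 6.67 and 6.90 on the OVA arrays, and 6.86, 6.97 and 6.86 on the arrays labelled control. It rose by 0.63 over OVA (SE 0.097, adjusted p = 0.00925).

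Rpl38 stood apart from these in its level on the arrays labelled control. It is known from mouse mutants for a role in the translation of Hox mRNAs, and its tract starts at the annotated first base. It had 11.32, 11.27 and 11.28 on the 4-week arrays, 10.76, 10.53 and 10.63 on the OVA arrays, and 11.31, 11.11 and 11.00 on the arrays labelled control. It was 0.65 higher in the 4-week group than in OVA (SE 0.093, adjusted p = 0.00769), and its 4-week and labelled control values overlapped. Rpl5, which carries 5S ribosomal RNA and, when free, binds Mdm2, had 10.12, 10.23 and 10.36 on the 4-week arrays, 9.82, 9.79 and 9.40 on the OVA arrays, and 9.65, 9.61 and 9.48 on the arrays labelled control. Its rise of 0.57 over OVA (adjusted p = 0.03) was less stable: it passed in 4 of 9 fits that each left out 1 array, with adjusted p up to 0.0871 (lost without 4-week replicate 2 or 3, OVA replicate 2 or 3, or labelled control replicate 2). The Rpl5 call was also lost with only the 4-week and OVA arrays in the fit (adjusted p = 0.0725), after quantile normalization (0.45, adjusted p = 0.0588) and on the probe set with the second highest mean (0.41, adjusted p = 0.0538). Rpl28, Rpl7 and Rpl34 rose by 0.42, 0.38 and 0.37 over OVA, Rpl34 in only 1 of those 9 fits (adjusted p up to 0.136).

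Among the small subunit genes, 6 of 21 rose in 4-week minus OVA, with a median of 0.23. Rps4x, the X-linked S4 protein, had 10.16, 10.20 and 10.34 on the 4-week arrays, 9.65, 9.66 and 9.60 on the OVA arrays, and 9.84, 9.83 and 9.72 on the arrays labelled control. It rose by 0.60 over OVA (SE 0.07, adjusted p = 0.00445), with the OVA arrays lowest. Rpsa, also known as a receptor for the matrix protein laminin, had 9.37, 9.29 and 9.46 on the 4-week arrays, 8.83, 8.92 and 8.72 on the OVA arrays, and 8.76, 8.92 and 8.79 on the arrays labelled control. Its rise over OVA was 0.55 (SE 0.081, adjusted p = 0.00837), and OVA and labelled control values overlapped fully.

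Rps25, needed for translation from some viral internal entry sites, had 9.93, 9.85 and 9.85 on the 4-week arrays, 9.39, 9.39 and 9.30 on the OVA arrays, and 9.19, 9.31 and 9.04 on the arrays labelled control. It rose by 0.52 over OVA (SE 0.078, adjusted p = 0.00886). Rps3a1 had 7.67, 7.86 and 7.58 on the 4-week arrays, 7.28, 7.15 and 6.98 on the OVA arrays, and 7.30, 6.83 and 7.11 on the arrays labelled control. Its rise of 0.56 over OVA (adjusted p = 0.0409) passed in 2 of 9 fits without 1 array, failing when any 4-week or any OVA array or labelled control replicate 3 was left out (adjusted p up to 0.139). The Rps3a1 call was also lost in limma with only the 4-week and OVA arrays in the fit (adjusted p = 0.0501) and with every row tested (adjusted p = 0.0545). Rps7 and Rps10 rose by 0.45 and 0.40, Rps7 in 8 of those 9 fits (adjusted p up to 0.0508).

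Rps6, the substrate of the S6 kinases downstream of mTOR, did not pass on its representative probe set. It had 12.62, 12.61 and 12.65 on the 4-week arrays, 12.49, 12.40 and 12.30 on the OVA arrays, and 12.70, 12.57 and 12.45 on the arrays labelled control, a difference from OVA of 0.23 (95% interval 0.05 to 0.42, adjusted p = 0.121). Its other 7 probe sets each passed, and the one with the second highest mean gave 0.37 (adjusted p = 0.0257). Rps15a had 7.36, 7.41 and 7.58 on the 4-week arrays, 6.99, 6.91 and 6.86 on the OVA arrays, and 6.49, 6.46 and 6.99 on the arrays labelled control. Its difference from OVA was 0.53 with an adjusted p of 0.0555, just outside the threshold although the 4-week and OVA values did not overlap.

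The P stalk, which recruits elongation factors to the large subunit, gave different values for its 3 genes, and the differences between them were not tested. Rplp0, the stalk's base, had 9.90, 10.11 and 10.10 on the 4-week arrays, 9.64, 9.43 and 9.38 on the OVA arrays, and 9.64, 9.64 and 9.52 on the arrays labelled control. It rose by 0.55 over OVA (SE 0.092, adjusted p = 0.0129), but its second probe set gave 0.34 (adjusted p = 0.0946), and the call was lost without 4-week replicate 2, OVA replicate 2 or OVA replicate 3 (adjusted p up to 0.0544). Rplp1 had 11.88, 11.85 and 11.83 on the 4-week arrays, 11.74, 11.89 and 11.80 on the OVA arrays, and 12.08, 12.07 and 12.02 on the arrays labelled control. Its difference from OVA was 0.04 with a 95% interval of −0.10 to 0.18, the 4-week and OVA values overlapped, and the sign turned after quantile normalization (−0.12). Rplp2 had 6.26, 6.60 and 6.40 on the 4-week arrays, 6.18, 6.21 and 6.22 on the OVA arrays, and 6.44, 6.43 and 6.29 on the arrays labelled control, a difference from OVA of 0.22 (adjusted p = 0.185).

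**Figure D2:**
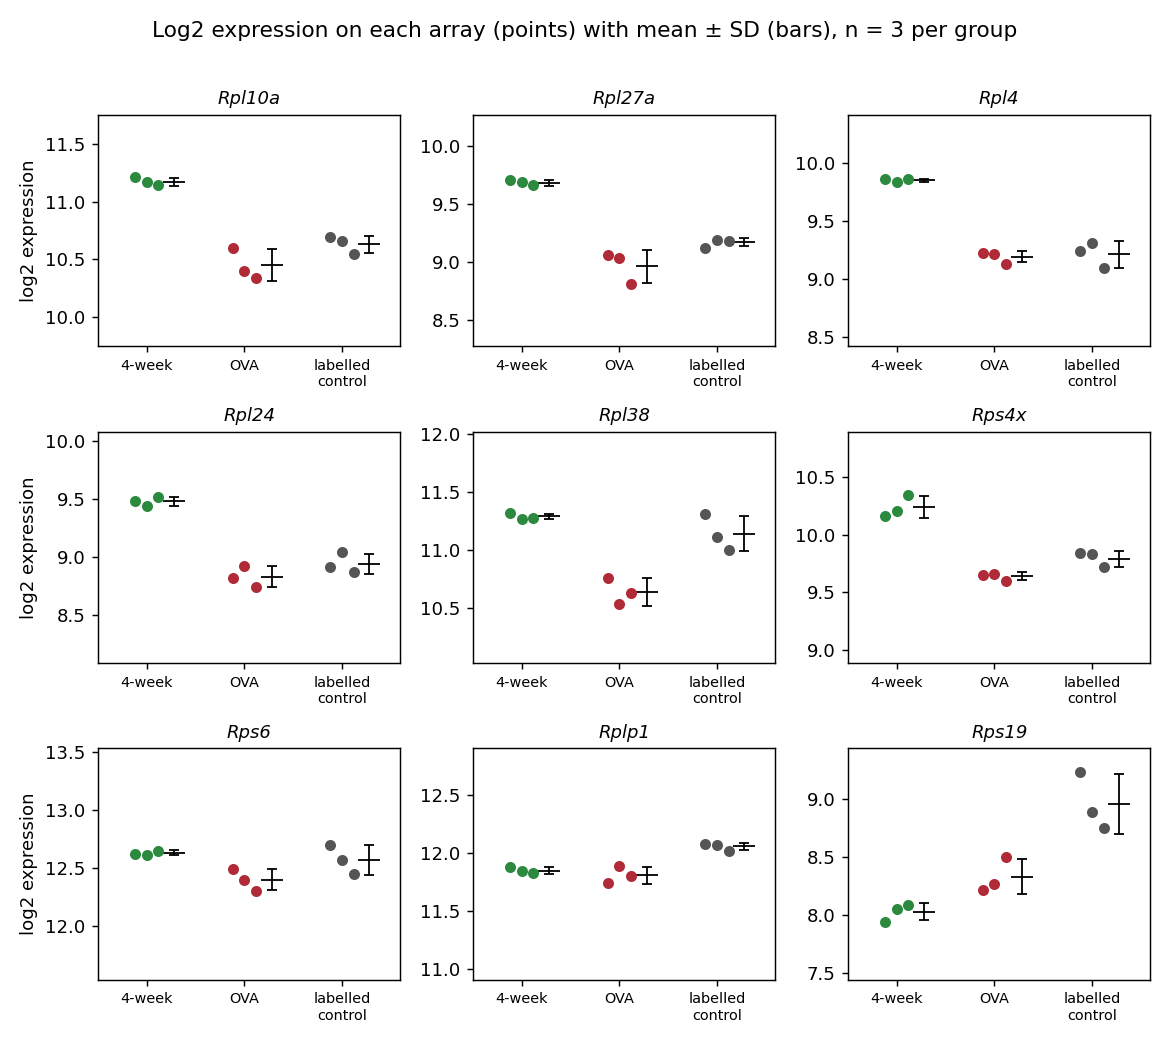
Log2 expression of 9 ribosomal protein genes on each array (points), with the mean and SD of each group of 3 (bars); each panel spans 2 log2 units. In the upper 6 panels every 4-week value lies above every OVA value, while Rplp1 overlaps between these groups and Rps19 is highest on the arrays labelled control.

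The other X-linked members did not pass in 4-week minus OVA. Rpl36a had 10.07, 10.06 and 10.08 on the 4-week arrays, 9.93, 9.69 and 9.68 on the OVA arrays, and 10.21, 9.98 and 9.75 on the arrays labelled control, a difference from OVA of 0.30 (adjusted p = 0.153). Rpl10, one of the last proteins to join the large subunit, had 11.89, 11.87 and 11.85 on the 4-week arrays, 11.81, 11.67 and 11.79 on the OVA arrays, and 11.85, 11.69 and 11.60 on the arrays labelled control, a difference from OVA of 0.12 (adjusted p = 0.403), which was −0.02 after quantile normalization. The OVA and labelled control values overlapped for Rpl36a and for Rpl10. They showed no step like that of Xist, but Xist is transcribed from the inactive X and is no yardstick for them. Whether the mismatch of the arrays labelled control affects these genes was not tested.

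Of the 7 paralogs and -like genes, 0 passed in 4-week minus OVA (limma). An unadjusted p under 0.05 was found in 2 of the 7, against 22.5% of all 19938 genes. Their median change was 0.21 and their range −0.10 to 0.47. Rpl32l had 7.55, 7.64 and 7.47 on the 4-week arrays, 7.32, 6.89 and 7.04 on the OVA arrays, and 7.25, 6.91 and 7.11 on the arrays labelled control, a difference from OVA of 0.47 (adjusted p = 0.0582). Rpl39l, known from male germ cells, gave 0.37 (adjusted p = 0.0778) on values between 3.70 and 4.34, and Rpl10l, also known from testis, gave 0.21 (adjusted p = 0.338). Rps27l, a p53 target in human cells, gave 0.24 (adjusted p = 0.355). Rps4l, a transcribed pseudogene in RefSeq, gave 0.17 (adjusted p = 0.289). Rpl7l1 gave 0.10 (adjusted p = 0.387), and Rpl3l, known from striated muscle, gave −0.10 (adjusted p = 0.425).

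Of the 44 members that did not pass, 37 had a change above 0, and their changes ran from −0.51 to 0.53. The 2 lowest were Rpl12, with 5.43, 5.36 and 4.96 on the 4-week arrays, 6.04, 5.75 and 5.49 on the OVA arrays, and 5.68, 6.05 and 5.46 on the arrays labelled control, and Rps19. Rpl12, part of the base of the P stalk, differed from OVA by −0.51 (adjusted p = 0.147) on its 1 probe set. Rps18, Rpl22, Rps29 and Rps9 lay between −0.07 and 0.01.

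Most probe sets of a gene gave nearly the same change. Over the 38 genes with several distinct probe sets, 182 in all, the SD of the 4-week minus OVA change was 0.0764 within a gene, against 0.212 between gene means. Of the 217 probe sets, 87 rose and 0 fell. Of the 13 called genes with over 1 probe set, all probe sets rose in 11. Among the 44 genes that did not pass, 9 had another probe set that rose, such as Rpl7a, in which the representative gave 0.08 and others up to 0.53. Probe sets of 1 gene can share probes and are no replicates, and many of these genes have near-identical processed pseudogenes whose transcripts a probe may also bind, so the split between gene and copy is uncertain. The 237 probe sets annotated to a ribosomal protein gene together with other genes behaved alike, with 87 higher, 1 lower and a median of 0.30.

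**Figure D3:**
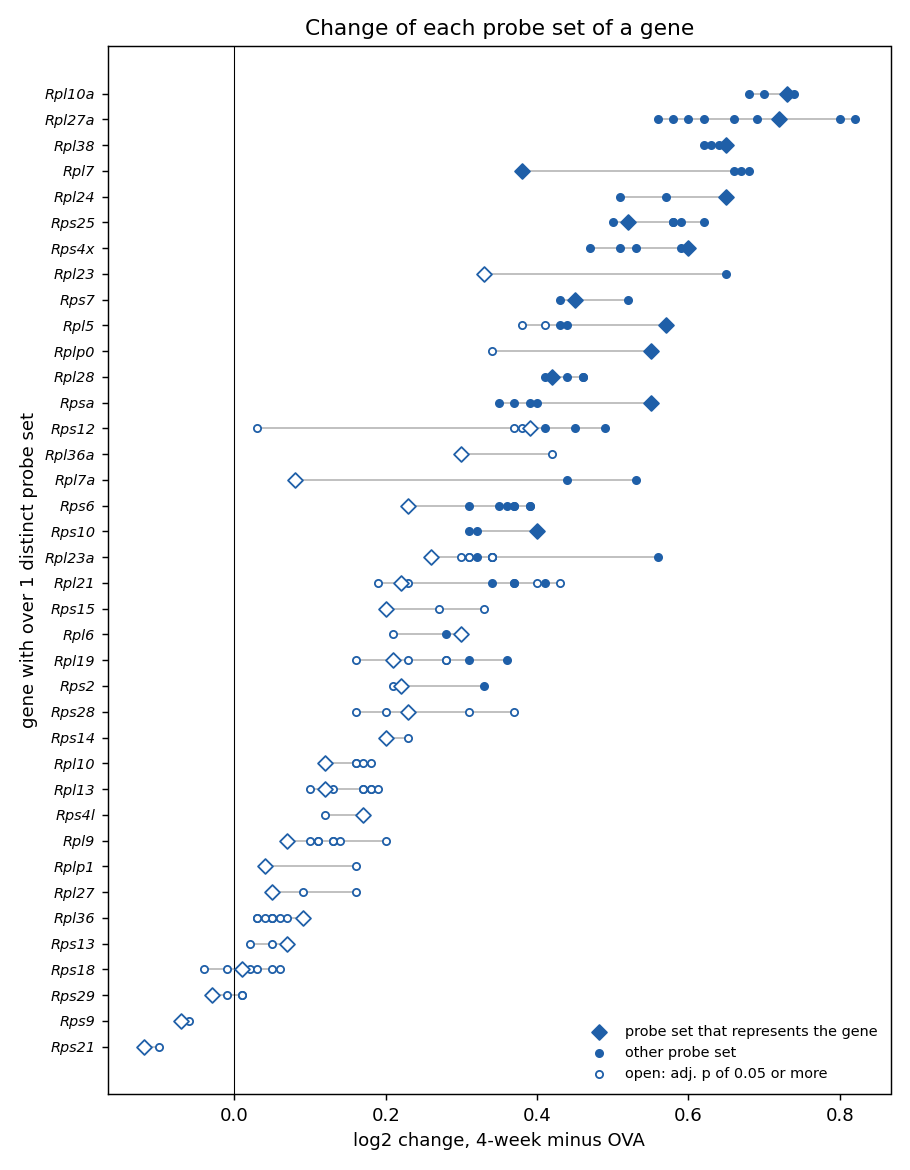
Log2 change in 4-week minus OVA of every distinct probe set of the 38 genes with over 1, 1 row per gene; diamonds are the probe sets that represent the gene, circles the others, and open symbols had an adjusted p of 0.05 or more. Values within a row lie close together in most genes, with Rpl7, Rpl7a, Rpl23 and Rps12 among the wider rows.

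In the OVA group the set had 1 call against the arrays labelled control. In OVA minus labelled control, 0 genes passed higher and 1 passed lower (limma), against 0.782% higher and 0.521% lower over all named probe sets, and 13 (21.3%) had an unadjusted p under 0.05, against 16.2% of all genes. That 1 gene was Rpl38, which was 0.50 lower (SE 0.093, adjusted p = 0.0415), and it did not pass in any of the 9 fits that left out 1 array (adjusted p up to 0.121). The median change was −0.07, against −0.02 over all genes, and 18 of the 61 genes were above 0, against 45.3% of all named probe sets. All OVA arrays lay below all arrays labelled control in 16 genes, against 11.1% of all named probe sets, and above them in 2, against 10.4%. Rps19, the gene most often mutated in Diamond-Blackfan anaemia, had the lowest change, −0.63 (adjusted p = 0.0574).

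Against the arrays labelled control, the 4-week group had 18 of the 61 genes higher and 2 lower, against 7.92% and 6.45% of all named probe sets. The median change was 0.17, against −0.05 over all genes, and 49 of the 61 genes were above 0, against 42.5% of all named probe sets. All 4-week arrays lay above all arrays labelled control in 27 genes and below them in 6, against 16.6% and 18.4% of all named probe sets. Rescaling moved this split: it was 12 higher and 4 lower after quantile normalization, and 16 higher and 5 lower after centring on the bright probe sets of other genes. Without 4-week replicate 2, 13 genes passed in place of 20. This comparison shares the 4-week arrays with 4-week minus OVA, so the same high 4-week values enter both.

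The highest changes from the arrays labelled control were those of Rps15a, 0.80 (adjusted p = 0.00801), Rps25, 0.70 (adjusted p = 0.00239), Rpl5, 0.66 (adjusted p = 0.0102) and Rpl4, 0.64 (adjusted p = 0.00239). Rps3a1 rose by 0.62 (adjusted p = 0.0179, lost without 4-week replicate 2 or labelled control replicate 2, up to 0.0649), Rpl26 by 0.57, Rpsa by 0.55, Rpl10a by 0.54, Rpl24 by 0.54 and Rpl27a by 0.52, these 5 with adjusted p between 0.00375 and 0.00765. Rps4x and Rplp0 each rose by 0.44, but by 0.15 (adjusted p = 0.201) and 0.09 (adjusted p = 0.568) on the probe set with the second highest mean. Rpl38, at 0.15, and Rpl28, at 0.13, did not pass.

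The 2 genes that passed lower against the arrays labelled control were Rps19 and Rps29. Rps19 had 7.94, 8.05 and 8.09 on the 4-week arrays, 8.22, 8.27 and 8.50 on the OVA arrays, and 9.24, 8.89 and 8.75 on the arrays labelled control. The 3 groups did not overlap, in the order 4-week, OVA and labelled control from low to high. It was 0.93 lower in the 4-week group than on the arrays labelled control (SE 0.13, adjusted p = 0.004, passed in all 9 fits without 1 array), and its 4-week minus OVA difference of −0.30 did not pass (adjusted p = 0.201). It rests on 1 probe set. Rps29, a small subunit protein with a zinc finger, was 0.26 lower than on the arrays labelled control (adjusted p = 0.0407), a call kept in 1 of 9 fits without 1 array and ended by 6 of the other alternatives. Rplp1 was 0.21 lower (adjusted p = 0.0564), and 0.41 lower after quantile normalization (adjusted p = 0.0103).

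Any difference among the 3 groups, by limma's moderated F test, passed in 22 of the 61 genes, against 12.4% of all named probe sets, and in 13 without 4-week replicate 2.

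The share that rose differed among the lists of protein synthesis, and was 2.62% over all 19938 genes. Of 77 mitochondrial ribosomal protein genes, which serve the separate ribosome of mitochondria, 5 rose (6.49%) and 2 fell in 4-week minus OVA. Their median was 0.03, and 47 of the 77 were above 0, against 8505 of the 19938. Mrps21 rose by 0.92 (adjusted p = 0.011), Mrps28 fell by 0.39 (adjusted p = 0.015) and Mrpl40 rose by 0.52 (adjusted p = 0.0198). Of 57 genes of ribosome assembly, 5 rose (8.77%) and 1 fell, with a median of 0.04 and 37 above 0. Taf1d, a subunit of the RNA polymerase I selectivity factor, fell by 0.62 (adjusted p = 0.00503), while Imp3, a processing factor of the small subunit, rose by 0.38 and Ncl (nucleolin) by 0.33.

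Initiation factors lay nearer to the ribosomal protein genes: 8 of 24 rose and 0 fell, with a median of 0.18. Eif4a2, an RNA helicase, rose by 0.65 (adjusted p = 0.00884), Eif3k, a subunit of the eIF3 scaffold, by 0.57 (adjusted p = 0.00728) and Eif4b, a helper of the helicase, by 0.39 (adjusted p = 0.00901). Of 6 elongation factor genes, Eef1b2, the exchange factor of eEF1A, rose by 0.63 (adjusted p = 0.00554), while Eef1a1 and Eef2 gave 0.18 and 0.19 and did not pass. A list of 8 other abundant transcripts, most of them known to carry a TOP tract, had 5 higher and 0 lower, with a median of 0.35. In it Naca, a chaperone of new peptides, had 9.50, 9.59 and 9.55 on the 4-week arrays, 8.84, 8.95 and 8.71 on the OVA arrays, and 8.85, 8.95 and 8.81 on the arrays labelled control, and rose by 0.71 over OVA (adjusted p = 0.00356). Tmsb4x, which binds actin monomers, rose by 0.61 and Tpt1 by 0.40, while Vim, Nap1l1 and Gas5 lay between −0.04 and 0.06.

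Of 17 genes of the mTOR pathway, 1 rose and 1 fell: Ddit4, an inhibitor of mTOR complex 1, rose by 0.71 (adjusted p = 0.0146), and Lamtor1, its anchor on lysosomes, fell by 0.41 (adjusted p = 0.0303). Of 16 genes of the ATF4 stress response, 0 rose and 3 fell, namely Ddit3 by 0.43, Slc7a11 by 0.87 and Atf5 by 0.50. Of the 4 genes Myc, Max, Mycn and Mdm2, 0 passed and 0 had an unadjusted p under 0.05 (limma). Oxidative phosphorylation genes (1 higher and 2 lower of 31) and proteasome genes (1 higher and 0 lower of 14) had medians of 0.01 and 0.10. Fau, whose product holds a small subunit protein behind a ubiquitin-like part and whose symbol is not of the Rps form, gave 0.16 (adjusted p = 0.161).

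**Figure D4:**
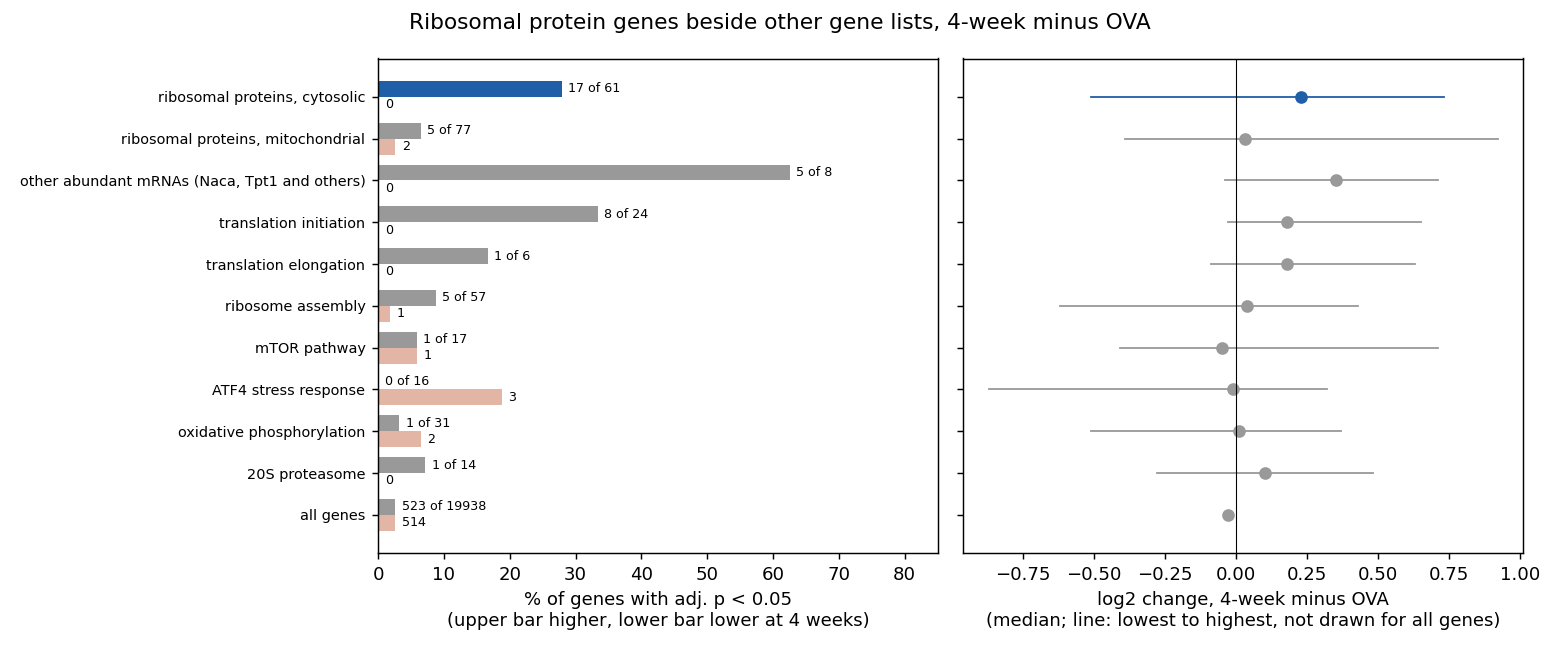
Share of the genes of each list that were higher (upper bar) or lower (lower bar) in 4-week minus OVA at an adjusted p under 0.05 (left, with counts), and the median log2 change with a line from the lowest to the highest gene (right; line not drawn for all genes). Cytosolic ribosomal proteins reach 17 of 61 with a median of 0.23, against 5 of 77 with a median of 0.03 for mitochondrial ones. Over all genes 523 of 19938 were higher, with a median of −0.03.

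Few cell type markers passed in 4-week minus OVA, but the medians of 4 marker lists (ciliated, sustentacular, macrophage and erythroid) were at least as far from 0 as that of the ribosomal protein genes. Ciliated cell markers had 1 of 10 higher (Dnah9), a median change of 0.24 with 10 of 10 above 0, and a summed log2 level of 76.5 to 78.2 in the 4-week group, 71.1 to 75.3 in the OVA group and 72.8 to 78.1 on the arrays labelled control. Markers of sustentacular cells, the support cells of olfactory epithelium, had 0 of 5 called and a median change of 0.35 with 5 of 5 above 0. They summed to 51.8 to 53.2 in the 4-week group, 50.9 to 51.3 in the OVA group and 51.5 to 52.1 on the arrays labelled control. Macrophage markers had 0 of 10 called, a median change of −0.49, and sums of 69.0 to 69.4 in the 4-week group, 69.6 to 75.6 in the OVA group and 62.8 to 70.5 on the arrays labelled control. These ciliated, sustentacular and macrophage lists had sums that did not overlap between the 4-week and OVA groups, and their part in the rise of the ribosomal protein genes was not tested. Proliferation (0 of 16), B and plasma cell (0 of 9), T cell (0 of 8), mature olfactory neuron (0 of 10), gland (0 of 11), basal (0 of 5), muscle (0 of 8), bone and cartilage (0 of 6) and erythroid (0 of 2) markers had no call, and neutrophil (Csf3r) and immature olfactory neuron markers had 1 lower each, of 10 and of 11. Against the arrays labelled control, 6 of 11 immature olfactory neuron markers were higher in the 4-week group and 6 of 11 in the OVA group. Over all genes these shares were 6.58% and 0.742%. Both differences cannot be told apart from the mismatch of the arrays labelled control. With no adjustment, 22.5% of all 19938 genes had a p under 0.05 in 4-week minus OVA (limma). This was reached by 4 of 10 macrophage, 3 of 5 sustentacular and 4 of 11 gland markers. It was also reached by 2 of 16 proliferation, 2 of 10 mature olfactory neuron and 1 of 8 T cell markers. The count was 1 of 5 for basal and 1 of 6 for bone and cartilage markers, and 0 for B and plasma cell, muscle and erythroid markers. The 2 erythroid markers had a median change of 0.44, and the 11 gland markers ran from −1.13 to 2.70. Across lists of this size, 0 calls at 3 arrays per group do not show equal levels.

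The promoter table held 49 of the 61 genes. A tract of C followed by at least 4 C or T, lying within the 30 bases shown, was found in 30 of 49 members (61.2%), against 39.6% of 27025 genes. It was found in 8 of the 16 members with a promoter that rose in 4-week minus OVA (50.0%) and in 22 of the 33 that did not pass (66.7%). The letters CCGGAAG, a core that ETS factors bind, were found on either strand between 250 bases before and 50 after the start in 19 of 49 members (38.8%), against 9.93% of all genes. They were found in 9 of the 16 members that rose (56.2%) and in 10 of the 33 others (30.3%). CACGTG (10.2% of members, 8.09% of all genes), AAGATGGC (6.12% and 3.19%) and TATAAA (12.2% and 15.7%), also read on either strand, differed less between members and all genes. These are matches of letters and say nothing of binding in this tissue.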

How the data were processed

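Each sample's total RNA went onto its own array, per the labels' protocols. The authors deposited RMA values on a log2 scale for each probe set, per the submitters' processing notes. Which software and probe set library they used is not given in the sources used here. That the scale is log2 was read from the range of values, 1.63 to 13.8. No detection calls come with them, so signal over background is unknown.

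Of 35556 rows, 23410 carried a gene symbol in the platform annotation of 2016 and were tested, 21789 of them with 1 gene. All 61 members matched RefSeq by Entrez number. A linear model per probe set over all 9 arrays, with a mean for each group, was fitted using limma (version 3.58.1, R 4.3.3) and eBayes defaults. Two-sided p-values of a contrast were adjusted over the 23410 probe sets by Benjamini-Hochberg, with 0.05 as the threshold. The scripts were tested on simulated data. With 50 changed probe sets per size in simulated 4-week minus OVA, 2% of 1.2-fold and 60% of 1.5-fold changes were recovered. A member that did not pass may therefore still have changed by such an amount. Intervals cover 95%.

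The members and gene lists were chosen with earlier results of these data known. Members past the threshold were named, up to 10 with the largest change in each direction per contrast, together with the P stalk, Rpsa, X-linked, paralog and Rps6 genes. The other members (Rpl28, Rpl7, Rpl34, Rps7, Rps10, Rps15a in 4-week minus OVA, Rpl12, Rpl7a, Rps18, Rpl22, Rps9) were named after their values were seen. From other lists, up to 3 genes with the smallest p were named, and the rest (Fau, Eef1a1, Eef2, Vim, Nap1l1, Gas5, Dnah9, Csf3r) after their values were seen. The alternatives were 3 scalings, a dim filter keeping the upper 60% of probe sets, every row, only the compared groups, a mean-variance trend, a replicate block, other representations of a gene, the set without paralogs, and leaving out each array.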

Additional observations from a re-analysis of the deposited data

How the results depend on the processing

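No called result reversed its direction under any alternative. Among results that did not pass, 12 changed sign in 24 alternative values, all with a size of 0.18 or less and none called; the farthest was Rps4l in 4-week minus labelled control, 0.07 on its representative and −0.18 on the probe set with the second highest mean. In 4-week minus OVA, 15 to 24 ribosomal protein genes passed under the other settings and 12 to 18 when 1 array was left out, with 0 lower under the other settings; 12 of the 17 passed in all 9 leave-one-out fits and 13 under all 11 other alternatives. The median change stayed between 0.18 and 0.28 under other settings and between 0.21 and 0.25 without 1 array. In 4-week minus labelled control, 16 to 24 passed under other settings and 13 to 20 without 1 array (13 without 4-week replicate 2), and the median was 0.07 after centring on bright probe sets of other genes and 0.05 after quantile normalization, with 0.13 to 0.22 without 1 array. In OVA minus labelled control the count was 2 with adjustment over 1 probe set per gene, centring on bright probe sets of other genes, the dim filter, the mean of probe sets per gene or the mean-variance trend, 0 with only the compared groups or every row, and 0 in every leave-one-out fit; the median was −0.10 to −0.03 without 1 array. The F test passed in 13 to 20 genes without 1 array. The cause of these shifts was not tested.

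Over all named probe sets, calls in 4-week minus OVA numbered 737 with only the compared groups (fewer arrays), 948 with the mean of probe sets per gene (fewer features) and 446 to 1361 without 1 array. In 4-week minus labelled control they numbered 2054 with only the compared groups, 5159 with centring on bright probe sets and 1560 to 2966 without 1 array, and in OVA minus labelled control 109 with only the compared groups, 165 with every row and 63 to 305 without 1 array. Among single named genes, 1215 alternative values kept their side of the threshold, 62 lost it and 14 gained it.

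Deviations of same-numbered arrays correlated at −0.0438 to 0.332, over 0.1 in 5 of 9 pairs, against −0.358 to 0.265 and 3 of 18 pairs with different numbers. Of the 9 arrays, 7 correlated best with an array of their own number. As not every same-numbered pair was over 0.1, the numbers were not taken to pair the arrays, though these values do not exclude a shared factor. With the replicate number as a block, 17 members passed in 4-week minus OVA (16 of the 17 without the block), 1 in OVA minus labelled control and 20 in 4-week minus labelled control (19 shared). Without detection calls, low values such as those of Rpl39l and Rpl3l may lie at background.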
